A study of Mus musculus with 20 samples.

Results

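The genes described here carry out MHC class I antigen presentation, and 10 were chosen by name: the heavy chains H2-K1 and H2-D1, the light chain B2m, the peptide transporter subunits Tap1 and Tap2, the loading factor Tapbp, the immunoproteasome subunits Psmb8, Psmb9 and Psmb10, and the transactivator Nlrc5. They were found on the array as the 12 probes whose accession belongs to one of these genes, out of 21612 genes with a symbol. Of the 10 genes 9 passed the filter, a signal well above background on 3 or more arrays out of 20, and were tested. On all 20 arrays 6 were above background (H2-K1, H2-D1, B2m, Tap2, Tapbp and Psmb10), and Psmb8 was above background on none.

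The arrays hold total RNA of B16, a murine melanoma line, here in a form carrying the Bcr-Abl fusion kinase, after transfection with plasmids for p65/RelA. The tested constructs were wild-type p65 (WT, 3 arrays), the D361E mutant that the series calls non-cleavable (D361E, 3 arrays), residues 1 to 361 (N, 3 arrays), residues 362 to 549 (C, 3 arrays) and both fragments together (NC, 5 arrays). Cells given a void plasmid (void, titled Blanck, 3 arrays) were the control. All 6 groups share the B16 Bcr-Abl background, the DMEM medium and the strain label C3H eOuJ, although B16 is known to have arisen in C57BL/6 mice. The labels state neither the plasmid promoter, the time after transfection, nor whether cells were clones or pools. They also do not say whether arrays of a group are separate cultures, so a p-value here covers only array-to-array spread within these groups, which may be technical. Rela itself, the gene of the plasmids, was at 4.23, 4.25 and 4.25 with WT, 4.14, 4.35 and 4.26 with D361E, 4.51, 4.69 and 4.39 with N, 4.299, 4.24 and 4.22 with C and 4.35, 4.34, 4.28, 4.32 and 4.42 with NC, against 4.17, 4.14 and 4.19 with void, as the log2 signal relative to the array's 75th percentile. It was higher than void with N (0.36 ± 0.07, adjusted p = 0.00089) and called with no other construct over all 20 arrays. Which part of Rela the probe covers, and whether it reads plasmid RNA, was not worked out, so these levels do not check the labels.

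In class I presentation, proteasomes cut cytosolic proteins into peptides, and interferon-inducible subunits can replace the standard catalytic ones. The TAP transporter, made of the Tap1 and Tap2 chains, moves peptides into the endoplasmic reticulum, where tapasin (Tapbp) holds empty class I molecules beside it. A heavy chain, its peptide and beta-2 microglobulin (B2m) then travel to the cell surface for inspection by CD8+ T cells. NLRC5 drives transcription of class I genes from their promoters, and NF-kB, the dimeric factor that contains p65, and interferon-responsive factors bind class I promoters. The p65 protein has its DNA-binding domain in the N-terminal part and its transactivation domains in the C-terminal part. B16 cells are widely used as a tumour with low surface class I.

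Levels are given as the log2 signal relative to the array's 75th percentile, which is 0, and they compare 1 probe between arrays, never 2 probes with each other. Differences are given ± SE from limma, a linear model with moderated variances, and called where the p-value adjusted over all genes is under 0.05. Adjusted p-values are limma's throughout. Per array 51.1 to 57.9% of the spots were well above background and no spot was saturated. The arrays sat on 5 slides of 4, with the groups spread over slides. All 8 melanocyte markers examined were above background on every array. Of 10 leukocyte markers 5 were never above background, among them Ptprc, and Cd68, Csf1r and Itgam were above it on all 20 arrays. Of 7 B and T lymphocyte markers 4 were never above background, among them Cd8a, a marker of cytotoxic T cells. Cd3e and Cd4, T-cell markers of the same list, were above background on all 20 arrays. The summed signal of the 10 leukocyte markers ranged from 199.5 to 354% of the 75th percentile in construct arrays and from 279 to 531% in void arrays, and that of 5 fibroblast markers from 59.6 to 62.98% with the N fragment, from 5.14 to 5.85% on NC arrays 16 to 18 and from 23.7 to 24.7% on NC arrays 19 and 20, against at most 12.2% in the other groups. Of the 5 fibroblast markers Dcn and Lum were never above background. The part of the leukocyte, lymphocyte and fibroblast markers in the results was not tested. The RNA is from bulk cells, so fewer cells of a kind and less RNA per cell cannot be told apart.

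The 5 NC arrays fell into separate sets on these genes, those numbered 16 to 18 in their titles and those numbered 19 and 20, although the labels give them the same treatment. H2-D1 was at -0.56, -0.62 and -0.60 on arrays 16 to 18, against 1.98 and 1.96 on arrays 19 and 20. Both sets met on slide 5, where array 16 minus array 19 was -2.54 for H2-D1, -3.06 for Nlrc5 and 0.13 for Tapbp. The summed signal of the class II presentation genes also parted the sets, from 10.8 to 18.9% of the 75th percentile on arrays 16 to 18 and from 65.5 to 77.9% on arrays 19 and 20, against 26.2 to 30.4% with void, and its part in the results was not tested. For the 10 genes each comparison that involves NC is therefore given for all 5 arrays and for each set. All groups share an estimate of spread, and for the 10 genes the comparisons that do not involve NC are given both over all 20 arrays and without the NC arrays, where their errors were smaller for most genes. The fits without NC were chosen after seeing the data, and the sets were known from earlier results.

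In the fit without NC both heavy-chain genes were higher with WT, D361E and the N fragment than with void plasmid, H2-K1 by its brighter probe. They were at their lowest on NC arrays 16 to 18. Tapbp passed the threshold with the full-length forms WT and D361E, about 2.06-fold and 2.02-fold higher, and with neither fragment. Tap1 was lower than void with every construct in that fit, as was Nlrc5, and Psmb9 with all but WT, while the levels of Psmb10 spanned 3.51 to 3.94. Psmb9 and Nlrc5 were above background on no D361E, N or C array. Both passed the filter only through other groups, so these calls are set in part by the filter and the detection limit. The plot of levels on each array shows these patterns, and the tests follow gene by gene.

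**Figure D1:**
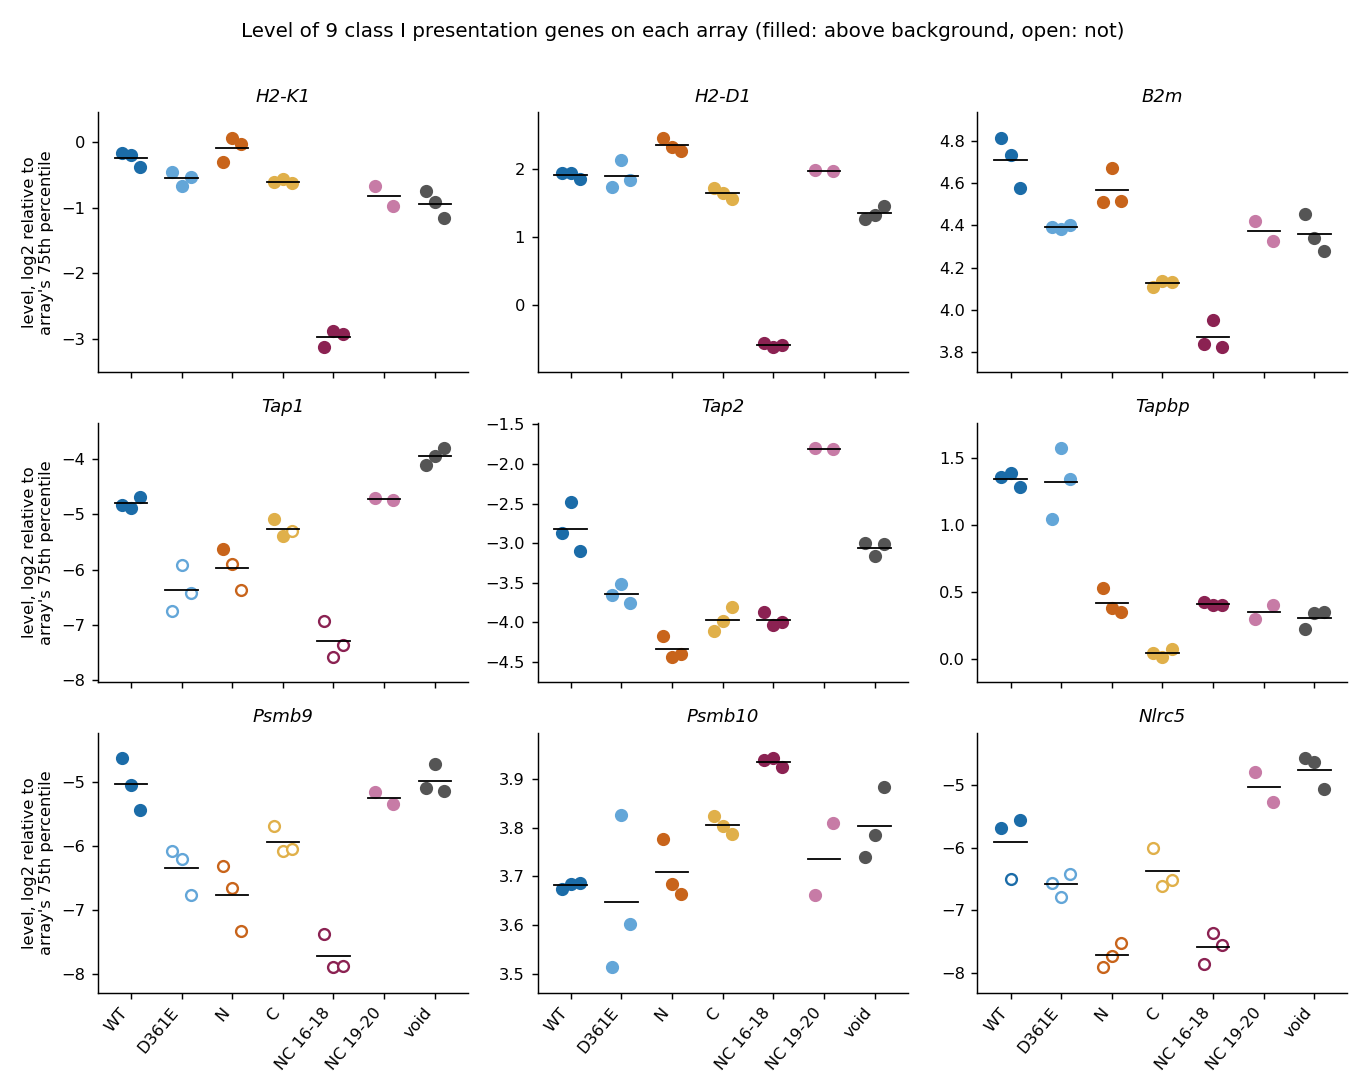
Level of 9 class I presentation genes on each of the 20 arrays, as log2 signal relative to the array's 75th percentile (vertical axis, with its own range in each panel). Points are arrays, filled where the probe was above background and open where it was not, and bars are group means. H2-D1 on NC arrays 16 to 18 lies between -0.62 and -0.56, below all other arrays, and Tapbp with WT and D361E lies between 1.05 and 1.58, above all other arrays.

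H2-K1 (chr17:33996012-34000619) and H2-D1 (chr17:35263094-35267497, both GRCm38.p6) encode classical class I heavy chains, the peptide-binding and polymorphic part of the molecule. Their promoters are shown because these genes moved together across the constructs. In the RefSeq table of promoters (GRCm38.p6, 250 bases before to 50 after a start) 8 of the 10 genes had an entry. Capitals mark a match to an NF-kB pattern written for this search and then, read on the other strand, to a shortened interferon-response motif, GAANNGAAA. Other forms of the NF-kB motif were not searched. The stretches lie at chr17:34000409-34000478 (minus strand) for H2-K1 and chr17:35262903-35262972 (plus strand) for H2-D1.
H2-K1: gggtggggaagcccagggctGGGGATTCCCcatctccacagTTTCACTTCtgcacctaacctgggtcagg
H2-D1: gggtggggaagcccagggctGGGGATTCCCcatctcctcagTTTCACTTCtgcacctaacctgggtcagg
Of these 70 bases 69 are identical between the genes. On both strands of all 32851 windows in the table, this NF-kB pattern occurs in 4.79% and GAANNGAAA in 7.52%. A match is a description of letters, not a measured binding site.

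H2-D1 was at 1.95, 1.95 and 1.86 with WT, 1.74, 2.13 and 1.84 with D361E, 2.46, 2.33 and 2.27 with the N fragment and 1.72, 1.65 and 1.56 with the C fragment, against 1.27, 1.32 and 1.45 with void plasmid. Every array of these constructs lay above every void array, and the N arrays lay above all others. For WT the difference from void was 0.57 ± 0.59, adjusted p = 0.613, over all 20 arrays and ± 0.10, adjusted p = 0.00224, without the NC arrays. With D361E it was 0.55 ± 0.59, adjusted p = 0.648, over all 20 arrays and ± 0.10, adjusted p = 0.00176, without the NC arrays. With the N fragment H2-D1 was 2-fold higher, a log2 difference of 1.00 ± 0.59, adjusted p = 0.228, over all 20 arrays and ± 0.10, adjusted p = 7.42e-06, without the NC arrays. With the C fragment the difference was 0.29 ± 0.59, adjusted p = 0.79, over all 20 arrays and ± 0.10, adjusted p = 0.0533, without the NC arrays, so H2-D1 passed the threshold with WT, D361E and N, and only once NC was left out of the fit. With the slide as a block in that fit the C difference passed it too (0.38 ± 0.07, adjusted p = 0.011).

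On NC arrays 16 to 18 H2-D1 was 3.83-fold lower than in void cells (-1.94 ± 0.09, adjusted p = 1.12e-09). On NC arrays 19 and 20 it was 1.54-fold higher (0.62 ± 0.10, adjusted p = 0.000685). The 5 arrays together gave -0.91 ± 0.53, adjusted p = 0.237, a mean that no NC array was near.

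H2-K1 was measured by 2 probes, and the fit used the brighter, A_55_P2049647, which is printed once per array. On it H2-K1 was at -0.16, -0.19 and -0.38 with WT, -0.45, -0.66 and -0.53 with D361E, -0.30, 0.07 and -0.04 with N and -0.61, -0.57 and -0.63 with C, against -0.74, -0.91 and -1.15 with void. All 12 of these construct arrays lay above the 3 void arrays, with N and WT the highest. The N fragment gave 0.85 ± 0.50, adjusted p = 0.233, over all 20 arrays and ± 0.12, adjusted p = 0.000124, without the NC arrays. WT gave 0.69 ± 0.50, adjusted p = 0.452, over all 20 arrays and ± 0.12, adjusted p = 0.00195, without the NC arrays. D361E gave 0.39 ± 0.50, adjusted p = 0.719, over all 20 arrays and ± 0.12, adjusted p = 0.0344, without the NC arrays, and C gave 0.33 ± 0.50, adjusted p = 0.71, over all 20 arrays and ± 0.12, adjusted p = 0.0635, without the NC arrays. H2-K1 was at -3.12, -2.88 and -2.92 on NC arrays 16 to 18 (-2.03 ± 0.11, adjusted p = 8.30e-09) and at -0.67 and -0.97 on NC arrays 19 and 20 (0.12 ± 0.14, adjusted p = 0.559). The first NC set was far below void and the second overlapped it.

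The second H2-K1 probe, A_51_P198434, is printed 10 times per array and gave smaller rises and a deeper fall. Its mean difference from void was 0.48 with WT, 0.15 with D361E, 0.24 with N and -0.09 with C, where the other probe had 0.33. On it D361E 1, D361E 3 and N 1, at -0.87, -0.78 and -0.87, lay within the void range (-1.03 to -0.77), while all WT arrays lay above it. On NC arrays 16 to 18 the signal of this probe was 9.26-fold lower than in void cells, against 4.1-fold by the probe printed once. On NC arrays 19 and 20 it was -0.45, where the other probe had 0.12, so the probes differed in sign there and with the C fragment. H2-K1 and H2-D1 belong to a family of near-identical genes, and whether a probe also binds RNA of H2-Q or H2-T genes was not checked, so the assignment of these levels to a single gene is uncertain.

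**Figure D2:**
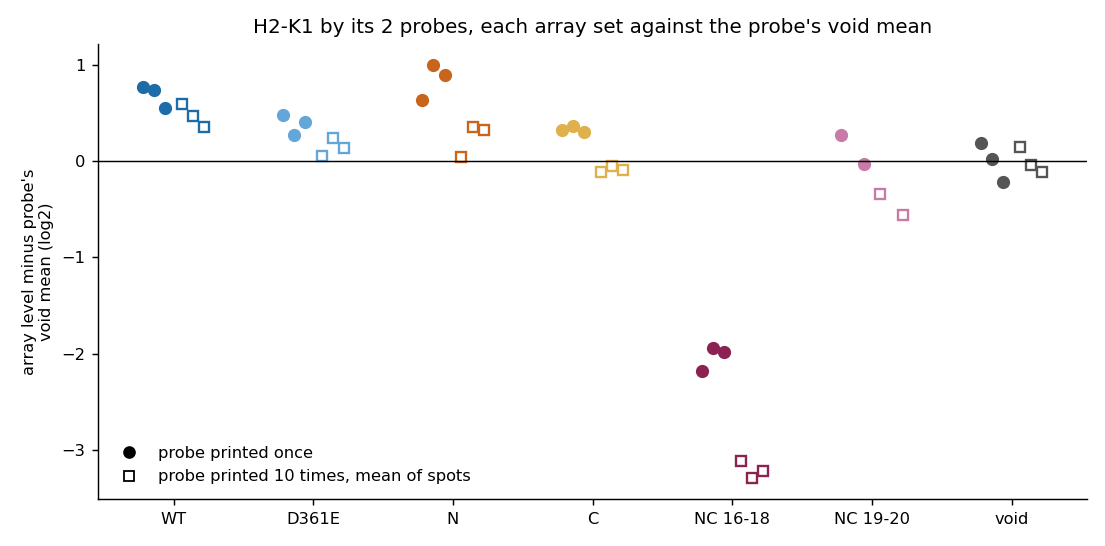
H2-K1 by its 2 probes: each array's log2 level minus the same probe's mean over the 3 void arrays (vertical axis), for each construct and void. Filled circles are the probe printed once and open squares the mean of the probe printed 10 times, and the squares lie below the circles for every construct, by most on NC arrays 16 to 18 (-3.21 against -2.03 on average).

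B2m (chr2:122147687-122153082) encodes beta-2 microglobulin, the light chain that every class I heavy chain needs to reach the surface. Its promoter carries a match to the same NF-kB pattern on the minus strand, and the full interferon-stimulated response element, found in 3.44% of windows, on the plus strand. Both are in capitals in this stretch of the plus strand, chr2:122147528-122147590.
B2m: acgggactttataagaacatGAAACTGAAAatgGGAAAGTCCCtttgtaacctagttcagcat
The plot of motif positions shows that H2-K1, H2-D1 and B2m were the 3 windows of 8 with any of the motifs searched. The windows of Tap1, Tapbp, Psmb8, Psmb9 and Psmb10 held none of these letters, which says nothing about other motifs or other distances.

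**Figure D3:**
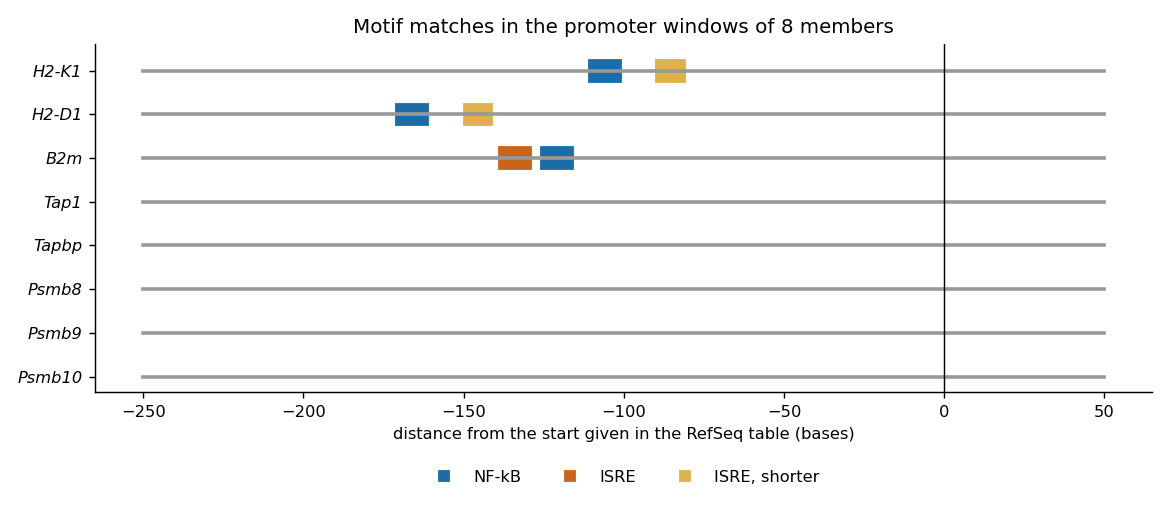
Matches to 3 motifs in the RefSeq promoter windows of 8 class I presentation genes, by distance in bases from the start in that table (horizontal axis). Coloured boxes are matches on either strand, and for H2-K1 the first of its 2 windows is drawn. H2-K1, H2-D1 and B2m each hold an NF-kB match with an interferon-response match beside it.

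B2m was at 4.81, 4.73 and 4.58 with WT, 4.39, 4.38 and 4.40 with D361E, 4.51, 4.67 and 4.51 with N and 4.11, 4.14 and 4.13 with C, against 4.45, 4.34 and 4.28 with void. The WT and N arrays lay above void, D361E lay within the void range, and the C arrays lay below it. The WT difference was 0.35 ± 0.13, adjusted p = 0.115, over all 20 arrays and ± 0.07, adjusted p = 0.00559, without the NC arrays. The N difference was 0.21 ± 0.13, adjusted p = 0.269, over all 20 arrays and ± 0.07, adjusted p = 0.0325, without the NC arrays, and the C difference was -0.23 ± 0.13, adjusted p = 0.287, over all 20 arrays and ± 0.07, adjusted p = 0.036, without the NC arrays. With the slide as a block and NC left out, the N and C differences had adjusted p = 0.0635 and 0.0583, and on unscaled signals the C difference was 0.01. B2m was at 3.84, 3.95 and 3.83 on NC arrays 16 to 18, below all void arrays (-0.48 ± 0.07, adjusted p = 5.90e-05). On NC arrays 19 and 20 it was at 4.42 and 4.33, inside the void range (0.02 ± 0.08, adjusted p = 0.896). The sizes are below those of the heavy chains, 1.27-fold for WT against 1.62-fold for H2-K1.

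Tap1 (chr17:34187556-34197225) and Psmb9 (chr17:34182030-34187330) are neighbours read in opposite directions, and the 225 bases between their starts are shown because both genes begin at its ends. It is the Tap1 strand at chr17:34187331-34187555, with no capitals because none of the motifs searched occurs in it.
Tap1 and Psmb9: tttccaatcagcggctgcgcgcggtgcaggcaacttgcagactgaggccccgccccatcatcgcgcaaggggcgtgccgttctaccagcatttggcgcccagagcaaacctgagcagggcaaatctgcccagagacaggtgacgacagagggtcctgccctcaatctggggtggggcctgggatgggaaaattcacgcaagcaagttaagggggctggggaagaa

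Tap1, the first chain of the peptide transporter, was at -4.82, -4.89 and -4.69 with WT, -6.75, -5.92 and -6.43 with D361E, -5.63, -5.91 and -6.37 with N and -5.08, -5.40 and -5.29 with C, against -4.10, -3.94 and -3.80 with void. It was highest on the void arrays and below background on all D361E arrays, on 2 N arrays and on 1 C array. Where no array of a group is above background, a fold is given as "at least", set against the lowest signal above background on each array. With D361E Tap1 fell at least 3.82-fold (-2.42 ± 0.62, adjusted p = 0.016, over all 20 arrays and ± 0.21, adjusted p = 1.05e-05, without the NC arrays). With N it fell too (-2.02 ± 0.62, adjusted p = 0.0206, over all 20 arrays and ± 0.21, adjusted p = 1.54e-05, without the NC arrays). With C the difference was -1.31 ± 0.62, adjusted p = 0.191, over all 20 arrays and ± 0.21, adjusted p = 0.00131, without the NC arrays, and with WT -0.86 ± 0.62, adjusted p = 0.453, over all 20 arrays and ± 0.21, adjusted p = 0.0194, without the NC arrays. Over all 20 arrays the D361E and N calls were lost when 1 array was left out (D361E 1, D361E 3 or void 3, and N 3, void 2 or void 3), with adjusted p up to 0.0627 and 0.0752.

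Tap1 fell on NC arrays 16 to 18 as well, at least 3.63-fold below void (-3.35 ± 0.22, adjusted p = 4.62e-08), with levels of -6.93, -7.59 and -7.37, all below background. NC arrays 19 and 20, at -4.70 and -4.74, were above background and still lower than void (-0.77 ± 0.23, adjusted p = 0.0235). For the 5 arrays together the difference was -2.32 ± 0.56, adjusted p = 0.00612. No Tap1 array outside the void group reached the lowest void array.

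Psmb9, an interferon-inducible catalytic subunit that replaces Psmb6, was at -4.63, -5.05 and -5.44 with WT, -6.08, -6.20 and -6.77 with D361E, -6.32, -6.66 and -7.33 with N and -5.69, -6.08 and -6.05 with C, against -5.10, -4.71 and -5.15 with void. WT and void overlapped and were above background, and no D361E, N or C array was. Psmb9 thus passed the filter only through void, WT and NC arrays 19 and 20. Its calls as lower in the other groups are set in part by the filter and the detection limit. The WT difference was -0.05 ± 0.62, adjusted p = 0.971, over all 20 arrays and ± 0.28, adjusted p = 0.922, without the NC arrays. With N Psmb9 fell at least 1.49-fold (-1.79 ± 0.62, adjusted p = 0.0377, over all 20 arrays and ± 0.28, adjusted p = 0.00037, without the NC arrays), with D361E the bound was 1.94-fold (-1.36 ± 0.62, adjusted p = 0.177, over all 20 arrays and ± 0.28, adjusted p = 0.00508, without the NC arrays) and with C 1.52-fold (-0.95 ± 0.62, adjusted p = 0.349, over all 20 arrays and ± 0.28, adjusted p = 0.0342, without the NC arrays). On NC arrays 16 to 18 Psmb9 was at -7.37, -7.90 and -7.87, all below background and at least 1.76-fold lower (-2.73 ± 0.28, adjusted p = 3.07e-06). On NC arrays 19 and 20 its levels, -5.16 and -5.34, lay just below the void arrays and were not called (-0.26 ± 0.30, adjusted p = 0.564). All 5 NC arrays gave -1.74 ± 0.55, adjusted p = 0.0304. Leaving out any void array, or N 2 or N 3, lost the N call over all 20 arrays, with an adjusted p of at most 0.134, and leaving out any void array or NC 1, 2 or 3, which are arrays 16 to 18, lost the NC call, with at most 0.105. The C call without NC was also not kept with the slide as a block (adjusted p = 0.152).

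Tap2 (chr17:34204479-34216321), the second transporter chain, followed another order. It was at -2.87, -2.48 and -3.10 with WT, -3.65, -3.51 and -3.76 with D361E, -4.17, -4.44 and -4.39 with N and -4.11, -3.98 and -3.81 with C, against -3.00, -3.17 and -3.01 with void. D361E, N and C lay below every void array and N was the lowest, while WT overlapped void. Over all 20 arrays none of these was called, and without NC 3 of the 4 were. The N difference was -1.28 ± 0.51, adjusted p = 0.0693, over all 20 arrays and ± 0.14, adjusted p = 2.71e-05, without the NC arrays. The C difference was -0.91 ± 0.51, adjusted p = 0.273, over all 20 arrays and ± 0.14, adjusted p = 0.00111, without the NC arrays, the D361E difference -0.58 ± 0.51, adjusted p = 0.547, over all 20 arrays and ± 0.14, adjusted p = 0.014, without the NC arrays and the WT difference 0.24 ± 0.51, adjusted p = 0.818, over all 20 arrays and ± 0.14, adjusted p = 0.304, without the NC arrays. Tap2 was at -3.86, -4.03 and -4.00 on NC arrays 16 to 18 and lower than void (-0.91 ± 0.14, adjusted p = 0.000118), whereas on NC arrays 19 and 20, at -1.80 and -1.82, it was 2.38-fold higher (1.25 ± 0.15, adjusted p = 6.87e-05) and above all other arrays. These opposite sets left a mean of -0.04 ± 0.45 for all 5 (adjusted p = 0.965).

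Tapbp (chr17:33919478-33929290) encodes tapasin, which bridges empty class I molecules to the transporter and edits their peptides. It was at 1.36, 1.39 and 1.29 with WT and 1.05, 1.58 and 1.34 with D361E, against 0.53, 0.38 and 0.35 with N, 0.05, 0.02 and 0.07 with C and 0.22, 0.34 and 0.35 with void. The 6 arrays of full-length p65 stood above all 14 others. WT rose 2.06-fold over void (1.04 ± 0.10, adjusted p = 5.30e-06, over all 20 arrays and ± 0.11, adjusted p = 6.50e-05, without the NC arrays), and D361E 2.02-fold (1.02 ± 0.10, adjusted p = 3.11e-06, over all 20 arrays and ± 0.11, adjusted p = 4.41e-05, without the NC arrays). On shared slides WT minus void was 1.17, and D361E minus void was 1.23 and 1.00. Between D361E and WT the difference was -0.03, with a 95% interval from -0.23 to 0.18.

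Neither fragment moved Tapbp past the threshold. The N difference from void was 0.12 ± 0.10, adjusted p = 0.414, over all 20 arrays and ± 0.11, adjusted p = 0.453, without the NC arrays, and the C difference was -0.26 ± 0.10, adjusted p = 0.092, over all 20 arrays and ± 0.11, adjusted p = 0.116, without the NC arrays. Unlike the heavy chains, Tapbp was at similar levels in both NC sets, 0.43, 0.40 and 0.40 on arrays 16 to 18 and 0.30 and 0.41 on arrays 19 and 20, with 0.08 ± 0.09 for all 5 (adjusted p = 0.562).

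Nlrc5 (chr8:94434335-94527272), the transactivator of class I genes, was measured by 1 usable probe near the detection limit, and its second probe was never above background. It was at -5.69, -6.50 and -5.56 with WT, -6.56, -6.78 and -6.42 with D361E, -7.92, -7.72 and -7.53 with N and -6.01, -6.61 and -6.51 with C, against -4.57, -4.63 and -5.06 with void. Above background were all 3 void arrays, WT 1 and WT 3 and the NC arrays 19 and 20, and no other array. Nlrc5 passed the filter only through these arrays, so its calls as lower in the other groups are set in part by the filter and the detection limit. With N Nlrc5 fell at least 1.75-fold (-2.97 ± 0.63, adjusted p = 0.00181, over all 20 arrays and ± 0.25, adjusted p = 2.09e-06, without the NC arrays). The bound was 2.28-fold for D361E (-1.83 ± 0.63, adjusted p = 0.0677, over all 20 arrays and ± 0.25, adjusted p = 0.000274, without the NC arrays) and 1.78-fold for C (-1.62 ± 0.63, adjusted p = 0.106, over all 20 arrays and ± 0.25, adjusted p = 0.000852, without the NC arrays). For WT the difference was -1.16 ± 0.63, adjusted p = 0.293, over all 20 arrays and ± 0.25, adjusted p = 0.00862, without the NC arrays.

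NC arrays 16 to 18 had Nlrc5 at -7.85, -7.37 and -7.56, at least 2.07-fold lower than void (-2.84 ± 0.24, adjusted p = 5.00e-07), and NC arrays 19 and 20 at -4.79 and -5.27 (-0.28 ± 0.28, adjusted p = 0.506). The first set was below all void arrays and the second overlapped them. All 5 arrays gave -1.81 ± 0.56, adjusted p = 0.0273, a call lost without void 1, void 2, NC 1, NC 2 or NC 3 (adjusted p at most 0.0845). Nlrc5 was below background with the N fragment, where the levels of H2-D1 were the highest of all groups.

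Psmb10 (chr8:105935728-105938392), the third inducible proteasome subunit, ranged from 3.51 to 3.94 over all 20 arrays. It was at 3.94, 3.94 and 3.92 on NC arrays 16 to 18, the highest levels, and at 3.66 and 3.81 on NC arrays 19 and 20, against 3.74, 3.78 and 3.88 with void. It was not called against void for any of the 5 constructs over all 20 arrays, nor for NC arrays 16 to 18 (0.13 ± 0.07, adjusted p = 0.154) or 19 and 20. With the slide as a block it was called higher in that set (0.18 ± 0.04, adjusted p = 0.00496) and, without NC, lower with D361E (-0.15 ± 0.05, adjusted p = 0.0413). Psmb8 (chr17:34198195-34201454), which replaces Psmb5, had levels between -8.28 and -7.44, all below background, and has no fold here. The standard subunits that these 3 replace, Psmb5, Psmb6 and Psmb7, were above background on all 20 arrays, and 0 of 3 were called in any of the 5 comparisons with void by limma over all 20 arrays (unadjusted p under 0.05 for 2 of 15 gene comparisons). On NC arrays 16 to 18 alone Psmb5 was lower (-0.57 ± 0.09, adjusted p = 0.000149).

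**Figure D4:**
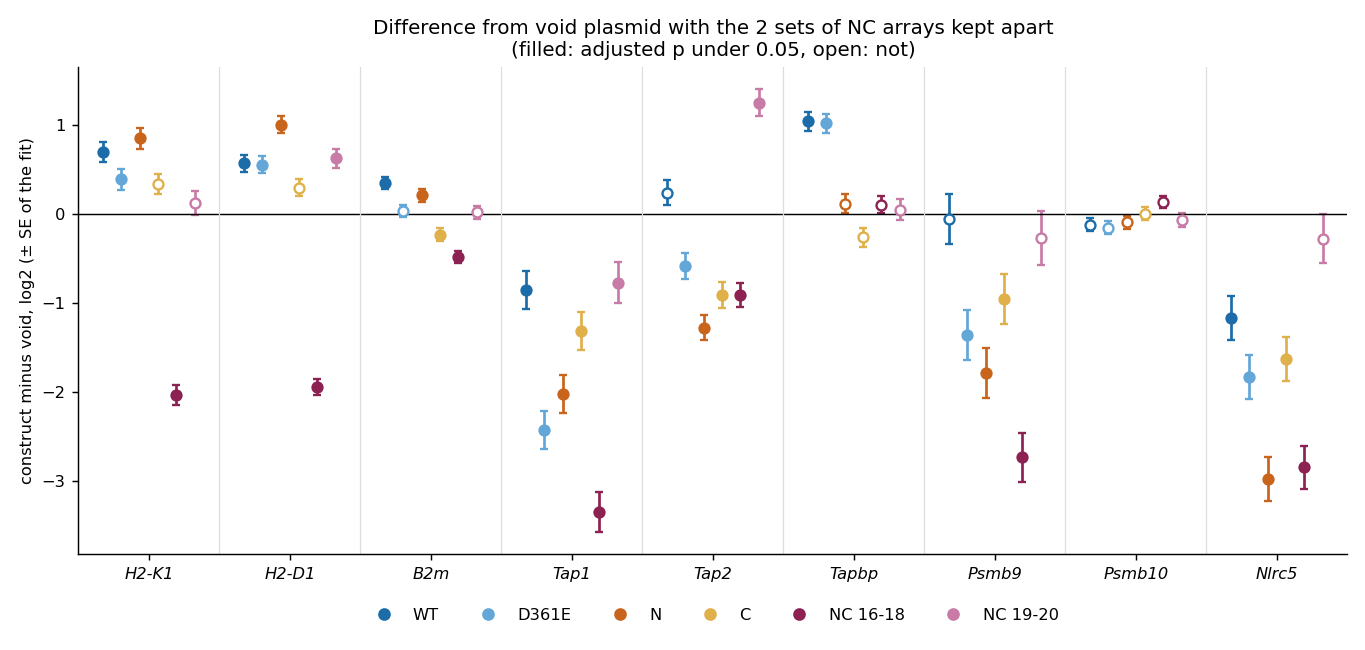
Log2 difference from void plasmid (vertical axis) for 9 class I presentation genes, with WT, D361E, N and C fitted without the NC arrays and NC arrays 16 to 18 and 19 to 20 fitted apart. Points are differences of group means, bars ± SE of the limma fit, and filled points have an adjusted p under 0.05. Tapbp is filled for WT (1.04) and D361E (1.02) only, and H2-K1 and H2-D1 are above 0 for N (0.85 and 1.00) and below it on NC arrays 16 to 18 (-2.03 and -1.94).

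Counted over the 9 tested genes and all 20 arrays, WT against void gave 1 higher, where 3.22% of all 18738 genes tested were called higher, and 0 lower, where 6.16% were. D361E gave 1 higher (6.04% of all genes) and 1 lower (7.44%), and N gave 0 higher (13.2%) and 3 lower (17.9%). C gave 0 higher (4.88%) and 0 lower (8.25%), with an unadjusted p under 0.05 for 2 of the 9 genes. NC gave 0 higher (11.8%) and 3 lower (12.8%). The median log2 difference over the 9 was 0.24 for WT, -0.16 for D361E, -0.09 for N, -0.26 for C and -0.91 for NC, where over all genes it lay between -0.06 and -0.02.

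Without the NC arrays WT gave 4 higher (5.54% of all genes), Tapbp, H2-K1, H2-D1 and B2m, and 2 lower (9.82%), Tap1 and Nlrc5. D361E gave 3 higher (9.04%), Tapbp, H2-D1 and H2-K1, and 4 lower (11%), Tap1, Tap2, Psmb9 and Nlrc5. N gave 3 higher (15.8%), H2-D1, H2-K1 and B2m, and 4 lower (21.7%), again Tap1, Tap2, Psmb9 and Nlrc5. C gave 0 higher (7.54%) and 5 lower (12.5%), those 4 and B2m. On NC arrays 16 to 18 none was higher (15.6%) and 7 were lower (18.1%), all but Tapbp and Psmb10. On NC arrays 19 and 20 H2-D1 and Tap2 were higher (14%) and Tap1 was lower (14.3%). Psmb9 and Nlrc5 passed the filter only through void, WT and NC arrays 19 and 20. No D361E, N or C array read them above background, nor did NC arrays 16 to 18. Their calls as lower in those groups, in both fits and against void or WT, are therefore set in part by the filter and the detection limit. These comparisons share the void arrays.

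The comparison of D361E with WT sets the mutant that the series calls non-cleavable against wild-type p65. Cleavage itself is not read by these arrays. Over all 20 arrays 0 of the 9 genes were higher (2.42% of all genes) and 0 lower (1.79%), with an unadjusted p under 0.05 for 2. Without NC 0 were higher (5.01%) and 4 were lower with D361E (3.54%). Tap1 was -1.56 ± 0.21 (adjusted p = 0.000613, at least 2.11-fold), Tap2 -0.82 ± 0.14 (adjusted p = 0.00353), Psmb9 -1.31 ± 0.28 (adjusted p = 0.0127, at least 1.87-fold) and B2m -0.31 ± 0.07 (adjusted p = 0.014). No D361E array read Psmb9 above background and it passed the filter through other groups, so its call is set in part by the filter and the detection limit. With the slide as a block Tap1 and Tap2 stayed called, while Psmb9 and B2m had adjusted p = 0.0779 and 0.0909. For H2-D1 the difference was -0.02 ± 0.10 in the fit without NC.

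The N fragment against WT gave 0 higher (13.8% of all genes) and 4 lower (13.5%) over all 20 arrays: Tap2 -1.52 ± 0.51 (adjusted p = 0.0361), Tapbp -0.93 ± 0.10 (adjusted p = 2.58e-06), Psmb9 and Nlrc5. Tap2, Psmb9 and Nlrc5 did not keep their calls when arrays were left out in turn (adjusted p up to 0.119, 0.152 and 0.124), and Tapbp did. Without NC 1 was higher (16.7%) and 5 lower (16.9%), H2-D1 higher by 0.44 ± 0.10 (adjusted p = 0.00426) and Tap1, Tap2, Tapbp, Psmb9 and Nlrc5 lower. No N array read Psmb9 or Nlrc5 above background, so in both fits their calls are set in part by the filter and the detection limit. The bound for Psmb9 was 1.44-fold. For Nlrc5 no bound could be given, because the WT mean, -5.92, did not lie above the detection limit of the N arrays. The C fragment against WT gave 0 higher (2.09%) and 2 lower (2.35%), Tapbp -1.30 ± 0.10 (adjusted p = 6.04e-07) and B2m -0.58 ± 0.13 (adjusted p = 0.0194, at most 0.0949 with 1 array left out). Without NC, 0 were higher (4.44%) and 3 lower (4.87%), Tap2 being added. With the slide as a block as well 6 were lower, where 1641 of all 18738 genes were, adding H2-K1 (-0.36, adjusted p = 0.0103), H2-D1 (-0.27, adjusted p = 0.0223) and Tap1 (-0.46, adjusted p = 0.0146).

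NC against WT gave 0 higher (13.6%) and 4 lower (9.67%) over all 20 arrays: H2-K1 -1.87 ± 0.45 (adjusted p = 0.00673), Tapbp -0.96 ± 0.09 (adjusted p = 9.95e-07), B2m -0.63 ± 0.12 (adjusted p = 0.001) and Psmb9 (adjusted p = 0.0369, lost without any WT array or NC 1, 2 or 3). With arrays 16 to 18 all 9 were called, 8 lower (15% of all genes) and Psmb10 higher (17.2%, 0.25 ± 0.07, adjusted p = 0.00922). No array of this set read Tap1, Psmb9 or Nlrc5 above background, so their calls as lower are set in part by the detection limit, and Nlrc5 has no bound against WT. With arrays 19 and 20 3 were lower (11.3%), H2-K1, B2m and Tapbp, and 2 higher (16.3%), Tap2 (1.01 ± 0.15, adjusted p = 0.000363) and Nlrc5 (0.89 ± 0.28, adjusted p = 0.0317). Tapbp, H2-K1 and B2m were lower than WT in both sets, B2m with an adjusted p of 0.0663 on arrays 19 and 20 once the slide was a block.

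Adding the fragments can be compared with having both, as NC minus N minus C plus void, which is 0 where log2 differences add up. Over all 20 arrays H2-K1 was below that sum (-2.36 ± 0.68, adjusted p = 0.0193), and Tap2, which was above background on all 20 arrays, was above it (2.14 ± 0.68, adjusted p = 0.0326). Nlrc5 also had a difference above the sum (2.78 ± 0.84, adjusted p = 0.0259), but no N or C array read it above background and its sum lay at -9.35, below the lowest level of any of the 9 genes (-7.92), so no array could have read it at the sum and the test is void for Nlrc5. Of all genes 8.75% were called below the sum and 14.3% above it. With the slide as a block over all 20 arrays 0 of 9 were called, where 4531 of all 18738 genes were, with an unadjusted p under 0.05 for 3. Tap2 was not called without any C or void array, N 2 or N 3, with an adjusted p of at most 0.0689, nor with quantile normalization (0.0549) or normexp (0.0864), where H2-D1 was called below the sum (0.0491). H2-K1 was below the sum in both sets: -3.22 ± 0.16, adjusted p = 4.54e-09, on arrays 16 to 18, and -1.06 ± 0.18, adjusted p = 0.00081, on arrays 19 and 20. Tap2 was above it in both (1.28 ± 0.19, adjusted p = 0.000153, and 3.43 ± 0.21, adjusted p = 1.31e-07). H2-D1 was below the sum in each set too (-3.24 ± 0.13, adjusted p = 4.44e-10, and -0.67 ± 0.14, adjusted p = 0.00295). Arrays 16 to 18 gave 2 above (19.9% of all genes) and 3 below (14%), and arrays 19 and 20 4 above (17.4%) and 2 below (10.9%). Those above were Tap2 and Nlrc5 on arrays 16 to 18, and Tap2, Tap1, Psmb9 and Nlrc5 on arrays 19 and 20. Psmb9 was below background on every N and C array, and Tap1 was above it on 1 N array and 2 C arrays, so for Tap1, Psmb9 and Nlrc5 a place above the sum is set in part by the detection limit.

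The other class I and class I-like genes were read from a list of 18, of which 15 had a probe and 12 were tested. Against void over all 20 arrays 0 were higher and 0 lower with WT, 0 and 1 with D361E, 1 and 3 with N, 0 and 1 with C and 1 and 2 with NC. Their median difference from void was 0.19 with WT, 0.32 with D361E, 0.09 with N, 0.06 with C and -0.46 with NC, beside -0.06 to -0.02 over all genes. Fcgrt, the neonatal Fc receptor heavy chain, fell with D361E (-0.91 ± 0.20, adjusted p = 0.00642), N (-1.86 ± 0.20, adjusted p = 3.63e-06), C (-1.08 ± 0.20, adjusted p = 0.00244) and NC (-1.30 ± 0.18, adjusted p = 7.51e-05). Cd1d1, which presents lipids, fell with NC (-1.87 ± 0.59, adjusted p = 0.0289), and H2-T10 rose with N (0.44 ± 0.13, adjusted p = 0.0165) and NC (0.39 ± 0.12, adjusted p = 0.022). By set, Fcgrt was called lower in both (-1.62 on arrays 16 to 18 and -0.83 on 19 and 20), Cd1d1 only in the first (-2.49 on arrays 16 to 18 and -0.93 on 19 and 20), and H2-T10 higher only in the first (0.55 on arrays 16 to 18 and 0.16 on 19 and 20). With N, Mr1, which presents vitamin B metabolites, fell (-0.53 ± 0.16, adjusted p = 0.0208).

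Without the NC arrays 5 of these 12 genes were higher and 2 lower with WT, 4 and 2 with D361E, 6 and 4 with N and 1 and 2 with C. On NC arrays 16 to 18 they gave 2 higher and 8 lower, and on arrays 19 and 20 4 higher and 2 lower. The shares of all genes called, for these and the lists that follow, are those given with the counts of the 9 genes. H2-T23, H2-Q7 and H2-Q2, chosen here after their values were seen and so given as a description, had differences from void of -2.10, -2.04 and -2.03 on arrays 16 to 18 and of 0.38, 0.62 and 0.46 on arrays 19 and 20. With the N fragment they were at 0.85, 0.97 and 0.93. The 4 genes of this list called lower with N without the NC arrays were H2-Q4 (-0.52), Mr1 (-0.53), Hfe (-0.27) and Fcgrt (-1.86). Sharing of signal between these probes was not checked.

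Of the genes that trim and load peptides all 8 were tested, and their median difference from void was 0.01 with WT, 0.12 with D361E, -0.08 with N, -0.05 with C and 0.12 with NC. Tapbpl, a tapasin relative that edits peptides, rose with D361E (0.50 ± 0.12, adjusted p = 0.0104), N (0.34 ± 0.12, adjusted p = 0.0377) and NC (0.32 ± 0.11, adjusted p = 0.0409). Erap1, the aminopeptidase that trims peptides in the endoplasmic reticulum, fell with N (-0.93 ± 0.30, adjusted p = 0.0253), and Lnpep, an endosomal aminopeptidase, with D361E (-0.39 ± 0.10, adjusted p = 0.019). Erap1 was above background on only 1 N array, so the size of its fall is set in part by the detection limit. None of the 8 was called with WT or C by limma over all 20 arrays (unadjusted p under 0.05 for 1 of 16 gene comparisons). Without the NC arrays 1 of the 8 was higher and 1 lower with D361E and with N, and 0 with WT and C, and each NC set gave 1 and 1. Tapbpl was called in neither NC set alone (0.28 on arrays 16 to 18 and 0.37 on 19 and 20). Of the 4 proteasome activator and assembly genes measured, Pomp, which assembles proteasomes, fell on the scaled signals with WT (-0.26 ± 0.06, adjusted p = 0.0129), D361E (-0.31 ± 0.06, adjusted p = 0.00232), N (-0.32 ± 0.06, adjusted p = 0.000693) and NC (-0.19 ± 0.05, adjusted p = 0.0154), while on unscaled signals its differences with WT, N and NC were 0.14, 0.02 and 0.02. Psme3, a nuclear proteasome activator, rose with N (0.54 ± 0.15, adjusted p = 0.00988) and C (0.70 ± 0.15, adjusted p = 0.00507). Pomp was called lower in both NC sets (-0.15 on arrays 16 to 18 and -0.24 on 19 and 20). With NC left out these 4 genes gave 1 higher and 1 lower with WT, 0 and 1 with D361E, 1 and 2 with N and 1 and 0 with C, and the NC sets gave 0 and 2 on arrays 16 to 18 and 0 and 1 on arrays 19 and 20.

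Interferon signalling, the main inducer of class I genes, was read from 17 genes with 14 tested. Over all 20 arrays 1 was higher and 1 lower with WT, 3 and 1 with D361E, 0 and 7 with N, 0 and 2 with C and 2 and 6 with NC. The median difference of the 14 was 0.04 with WT, 0.08 with D361E, -0.32 with N, -0.04 with C and -0.16 with NC, beside the same range over all genes. Jak1, a kinase of interferon receptors, fell with all 5 constructs, by most with C (-0.56 ± 0.06, adjusted p = 3.38e-05) and by least with NC (-0.20 ± 0.06, adjusted p = 0.0177), which was 0.02 on unscaled signals. With N the largest falls were Ifngr2 (-0.91 ± 0.25, adjusted p = 0.0127) and Ifnar1 (-0.87 ± 0.08, adjusted p = 1.03e-06), chains of the receptors for interferon gamma and type I interferons. With NC, Ifngr2 (-0.89 ± 0.20, adjusted p = 0.00476) and Irf9 (-0.67 ± 0.21, adjusted p = 0.0281) fell and Socs1 (0.42 ± 0.10, adjusted p = 0.00462), a feedback inhibitor, rose. Irf1, which binds the class I interferon-response element, fell with C (-0.35 ± 0.10, adjusted p = 0.0315). Socs1 (0.48 ± 0.11, adjusted p = 0.00738) and Socs3 (0.45 ± 0.05, adjusted p = 2.16e-05) rose with D361E. By set, NC gave Ifngr2 lower in both (-1.24 on arrays 16 to 18 and -0.38 on 19 and 20), Socs1 higher in both (0.35 on arrays 16 to 18 and 0.53 on 19 and 20), and Irf9 (-1.05 on arrays 16 to 18 and -0.09 on 19 and 20) and Jak1 (-0.20 on arrays 16 to 18 and -0.19 on 19 and 20) lower in the first only. Without the NC arrays the 14 genes gave 1 higher and 1 lower with WT, 3 and 3 with D361E, 0 and 7 with N and 0 and 3 with C, and the NC sets gave 2 and 7 on arrays 16 to 18 and 2 and 2 on arrays 19 and 20. Ifng and Ifnb1 were never above background.

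Among the NF-kB subunits, Relb, a partner in the noncanonical dimer and itself an NF-kB target, rose with WT (1.12 ± 0.11, adjusted p = 1.30e-05), D361E (1.18 ± 0.11, adjusted p = 3.44e-06) and N (0.37 ± 0.11, adjusted p = 0.0208) and fell with C (-0.54 ± 0.11, adjusted p = 0.00532) and NC (-0.80 ± 0.10, adjusted p = 3.08e-05). Nfkb2, its p52 precursor, rose with WT (0.65 ± 0.19, adjusted p = 0.0448), D361E (0.76 ± 0.19, adjusted p = 0.014) and N (0.91 ± 0.19, adjusted p = 0.0017). Of 5 subunits 4 were tested, 2 were called with WT, 2 with D361E, 3 with N, 1 with C and 1 with NC, and Rel was never above background. These numbers were the same without the NC arrays and in each NC set, where Relb was lower in both (-0.88 on arrays 16 to 18 and -0.68 on 19 and 20). Of the factors that bind class I promoters together with NLRC5, 7 of 8 were tested, with a median difference of 0.17 with WT, 0.10 with D361E, 0.07 with N, 0.03 with C and 0.12 with NC. Rfxap fell with N (-0.36 ± 0.10, adjusted p = 0.0159) and NC (-0.31 ± 0.09, adjusted p = 0.0256), Rfxank fell with C (-0.50 ± 0.15, adjusted p = 0.0381), and Creb1 rose with N (0.33 ± 0.08, adjusted p = 0.00662). Nfya (0.35 ± 0.09, adjusted p = 0.00982) and Atf1 (0.34 ± 0.11, adjusted p = 0.0302) rose with NC. None was called with WT or D361E by limma over all 20 arrays (unadjusted p under 0.05 for 2 of 14 gene comparisons), and without the NC arrays Rfxank was higher with D361E (0.36 ± 0.08, adjusted p = 0.00699). In that fit the 7 factors gave 0 higher and 0 lower with WT, 1 and 0 with D361E and 1 and 1 with N and C. The NC sets gave 1 and 1 on arrays 16 to 18 and 3 and 1 on arrays 19 and 20. By set, Rfxap was lower in the first only (-0.38 on arrays 16 to 18 and -0.20 on 19 and 20), Nfya higher in both (0.32 on arrays 16 to 18 and 0.41 on 19 and 20) and Atf1 higher in the second only (0.25 on arrays 16 to 18 and 0.47 on 19 and 20).

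Across the 20 arrays H2-K1 and H2-D1 had a Pearson correlation of 0.96, and H2-K1 and B2m of 0.84, values that rest in part on the 3 NC arrays 16 to 18. Over the other 17 arrays they were 0.67 and 0.66. Psmb10 ran against H2-K1 with -0.75 over 20 arrays and -0.56 over 17, and Tap2 had 0.13 and -0.46. The plot of member pairs shows the heavy chains and B2m with NC arrays 16 to 18 as an end group, and Tap1 and Tap2 with different orders of the constructs. The arrays share groups, slides and scaling, so these are descriptions.

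**Figure D5:**
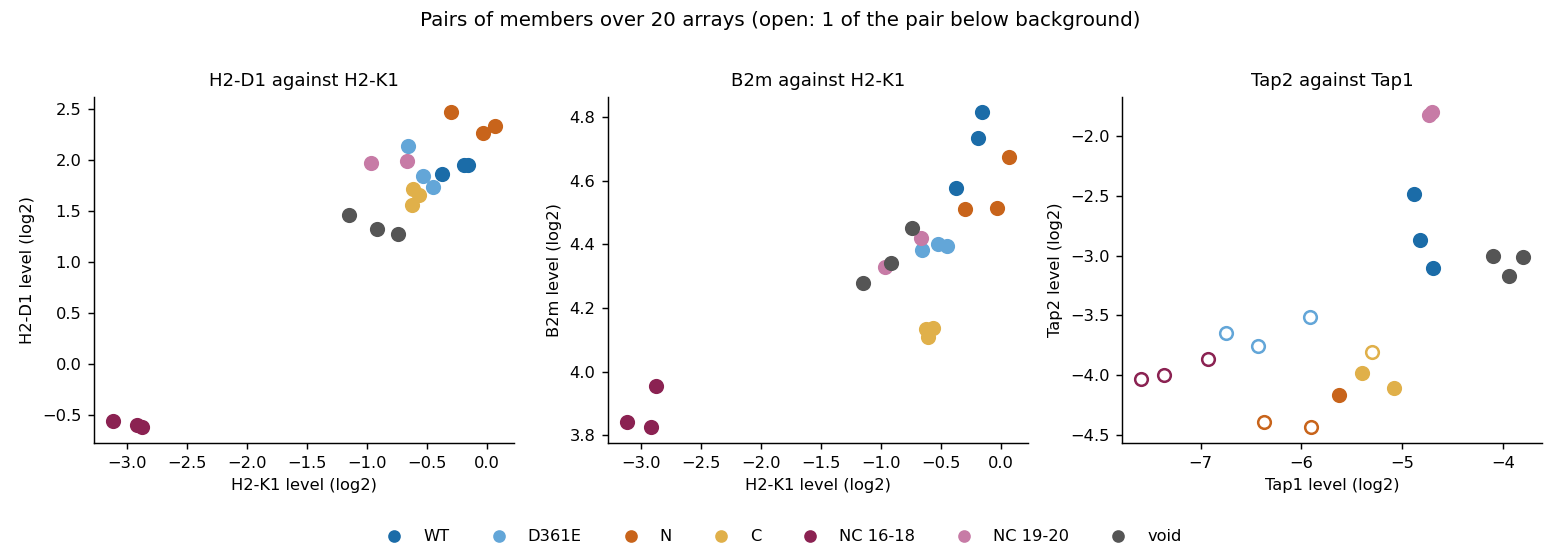
Pairs of class I presentation genes over the 20 arrays, each point an array and each axis the log2 level relative to the array's 75th percentile. Open points in the right panel have Tap1 below background. NC arrays 16 to 18 lie apart at low H2-K1 (-3.12 to -2.88), and NC arrays 19 and 20 have the highest Tap2 (-1.82 and -1.80).

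The 5 genes whose levels over the 20 arrays correlated most with the mean standardised level of the 6 genes above background everywhere were Batf, an AP-1 family factor (r = 0.93), Sgcd, a sarcoglycan (0.90), Nfkbie, an inhibitor of NF-kB and known NF-kB target (0.90), Slc7a8, an amino acid transporter (0.89), and Pmvk, an enzyme of the mevalonate pathway (0.89). Without NC arrays 16 to 18 their correlations over 17 arrays were 0.83, 0.81, 0.75, 0.74 and 0.67. They were found by searching all genes for likeness, so their correlations are a description.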

How the data were processed

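RNA of 20 samples was hybridised to 1-colour Agilent mouse arrays labelled with Cy3. Per the file headers, the authors scanned the arrays with Agilent Feature Extraction software (version 10.7.3.1, also named in the submitters' processing notes), which subtracted background within each array and gave the deposited intensity of every spot, with no scaling between arrays. The deposited table of the whole series held the same intensity values. Here, control spots and outlier spots were left out, spots of a probe were averaged as log2 intensity, and each array's 75th percentile was subtracted. Probes above background on 3 or more arrays were kept, named by accession through the RefSeq gene table (GRCm38.p6), and the brightest probe stood for a gene. limma 3.58.1 in R 4.3.3 was fitted to all 20 arrays with 6 groups, and p-values were adjusted by the Benjamini-Hochberg method over 18738 genes. The fit was checked on simulated data. The number of arrays limits the precision. Slides hold several groups, so the slide was tried as a block, together with other normalizations, background corrections, filters and sample sets, and normexp used the median spot signal because the files hold no mean spot signal.

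Groups were taken from the sample titles. The 10 genes and the gene lists were chosen with earlier results of these data known. Of each list, the genes named as called were taken from those with the largest difference from void, mostly up to 2 per direction in each comparison. Not every called gene is named, so a gene left unnamed may still have been called. Those named outside this rule are mostly said to be so or come from the class I presentation set. Where a group was below background on all its arrays, a fold is a lower bound: the mean of the other group against the mean, per array, of the higher of the gene's own signal and the lowest signal among probes above background. Promoter sequences came from RefSeq, and the position of probes within genes and their sequences were not used here.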

Additional observations from a re-analysis of the deposited data

Results flagged for a closer look

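Tapbp on NC array 19 (0.30) stood apart from the other 4 NC arrays (0.40 to 0.43): its gap to the nearest was 0.824 of the range of the group, past the critical value of Dixon's test for 5 samples. Such a gap appears by chance in about 1 in 20 groups, and 9 genes were looked at. The effect of having both fragments differed from the sum of the effects of each by the interaction test of limma for 3 genes, with H2-K1 at -2.36 (adjusted p = 0.0193), Tap2 at 2.14 (adjusted p = 0.0326) and Nlrc5 at 2.78 (adjusted p = 0.0259) on the log2 scale. For Nlrc5 the sum of the effects lay below any level read for these genes, so its value is fixed by the detection limit and is not evidence of a difference. H2-K1 and Tap2 kept their directions with NC arrays 16 to 18 alone (-3.22 and 1.28) and with NC arrays 19 and 20 alone (-1.06 and 3.43).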

How the results depend on the processing

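No paired analysis was possible because no replicate number is shared between groups in the titles, and the slide, which joins arrays of several groups, was tried as a block instead. Of the 1104 values of single genes under alternatives other than leaving out 1 array, 926 kept direction and side of the threshold, 124 newly passed it, 45 no longer passed it and 9 turned in sign. Of 126 counts over all genes 25 moved by over 1.5 times, with WT against void (1759 genes) spanning 1116 to 7678 and C against WT (832) 469 to 3761. Tapbp kept its calls with WT and D361E against void when any single array was left out. Counts of the 9 genes called, with 1 array left out, ranged from 1 to 1 for WT against void, 1 to 2 for D361E, 1 to 3 for N, 0 to 0 for C and 1 to 6 for NC, and against WT from 0 to 0 for D361E, 1 to 2 for N, 1 to 2 for C and 3 to 7 for NC, and from 1 to 4 beyond the sum. Over all 18738 genes, in the same order, these fits called 941 to 1722, 1720 to 2240, 4767 to 5531, 1434 to 2501 and 3466 to 5055 against void. Against WT they called 469 to 635, 4057 to 4536, 395 to 583 and 2984 to 4682, and beyond the sum 3399 to 4846. Counts in brackets below are the calls of the same fit over all genes, 18738 unless another number is given. Fitting only the groups compared gave 4 calls for WT against void (1532), 5 for D361E (1451), 6 for N (4711), 5 for C (2561) and 0 for NC (2023). Against WT it gave 1 for D361E (776), 6 for C (2299) and 2 for NC (2645), with 0 beyond the sum (3560). Without the NC arrays there were 6 for WT (2878), 7 for D361E (3753), 7 for N (7027) and 5 for C (3752) against void and 4 for D361E against WT (1602). With the slide as a block as well there were 7 (3338), 8 (5737), 6 (8384) and 4 (4384) against void. Against WT that fit gave 2 for D361E (1868), 7 for N (8081) and 6 for C (3761). The slide block alone left 0 beyond the sum (4531). NC arrays 16 to 18 alone gave 7 calls against void (6316), 9 against WT (6027) and 5 beyond the sum (6348). With the slide block they gave 8 (8312), 9 (7971) and 6 (7880). NC arrays 19 and 20 gave 6 beyond the sum with that block (4913 of 18737) and without it (5303 of 18737). They turned the sign of H2-D1 (0.62, and 0.57 with the block) and Tap2 (1.25 and 1.305) against void and of Tap2 (1.01 and 0.95) and Nlrc5 (0.89 and 1.06) against WT. Quantile normalization gave 1 call for NC against void (4692) and 2 for N against WT (5048). Normexp with the median spot signal gave 2 for WT (1544) and 1 for NC (4114) against void and 1 for N against WT (4460). No filter gave 1 for N against WT (4311 of 32016). Keeping only probes above background on all arrays tests 6 of the genes and 14814 in all. It gave 1 for D361E (2488), 0 for N (5337) and 0 for NC (4457) against void and 2 for N against WT (4802). On unscaled signals the median of all genes against void was 0.37 with WT, 0.12 with D361E, 0.28 with N, 0.21 with C and 0.19 with NC, where scaled signals had -0.06 to -0.02. Unscaled signals gave 3 calls for WT (7678) and 5 for NC (5565) against void and 1 for D361E against WT (1404), and turned Psmb10 with WT to 0.28. The causes were not tested. Psmb8, Psmb9, Tap1 and Nlrc5 are limited by signal near background. The fits without NC, with sets of NC arrays and slide, and with the median of spots were chosen after seeing the data.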

Other observations

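Class II presentation, in which H2-DM helps to load peptides, was not above background in most of its listed genes: H2-Aa, H2-Eb1 and H2-Oa never were. H2-DMb1, a chain of the H2-DM peptide exchanger, fell with D361E over all 20 arrays (-3.95 ± 1.12, adjusted p = 0.028). Only 1 of the 3 D361E arrays read H2-DMb1 above background, so the size of that fall is set in part by the detection limit. Without the NC arrays H2-DMb1 was lower with WT (-3.09 ± 0.27, adjusted p = 1.80e-05), N (-1.62 ± 0.27, adjusted p = 0.00056) and C (-2.39 ± 0.27, adjusted p = 0.000103). It was lower on NC arrays 16 to 18 (-2.94 ± 0.26, adjusted p = 8.90e-07) and higher on NC arrays 19 and 20 (1.88 ± 0.29, adjusted p = 0.000443), so the sets differ for a class II gene as they do for H2-D1.

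Among the fibroblast markers, Col1a1 (3.55 ± 0.78, adjusted p = 0.00237) and Pdgfra (1.25 ± 0.29, adjusted p = 0.00343) were higher with the N fragment. Of the other 3 markers Dcn and Lum were never above background, and Thy1 was above it on no N array. Pdgfra was lower with the C fragment (-1.64 ± 0.29, adjusted p = 0.00156). No C array read Pdgfra above background, so the size of that fall is set in part by the detection limit. These differences are against void and over all 20 arrays.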
